A study of Mus musculus with 9 samples.

Results

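The 45 genes described here code for the proteins that take a cell from G1 into S phase and copy its DNA. They were chosen by symbol, with no measured value in the rule, but with earlier results of these data known. All 45 were found among the 37990 genes counted, and all 45 passed the filter on low counts, among 14465 genes tested. They were measured by RNA sequencing in E14 cells, a line of mouse embryonic stem cells grown on gelatin in serum with LIF, the cytokine that keeps such cells undifferentiated. All libraries came from cells transduced with the lentiviral vector pLKO.1 carrying a short hairpin RNA and then selected with puromycin, so controls and knockdowns share vector and drug. One group of 3 libraries carried a hairpin against Fam60a (now named Sinhcaf), which codes for a subunit of the SIN3-HDAC co-repressor complex. A second group of 3 carried a hairpin against Sin3a, the scaffold of that complex, and the third group of 3, labelled T2SC, was taken as the scrambled hairpin control by elimination. The labels call the libraries of a group biological replicates. They do not say how many hairpins lie behind each group and describe no cloning step, and each target stayed partly expressed.

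Entry into S phase rests on a small circuit. Cyclin E, with the kinase Cdk2 and its activating phosphatase Cdc25a, helps to release E2F transcription factors from the RB family, and activating E2F proteins then raise the genes for replication enzymes, while E2f6, E2f7 and E2f8 repress them. Before S phase the origin recognition complex, Cdc6 and Cdt1 load the Mcm2-7 helicase on chromatin, which geminin (Gmnn) prevents from happening again in the same cycle. At S phase the helicase is activated with Cdc45 and the GINS complex. DNA is then copied by primase and polymerases, and the PCNA clamp holds some of the polymerases on. Embryonic stem cells are known for a short G1 phase and for abundant transcripts of many of these genes. In bulk RNA, fewer cells in a cycle phase and less RNA per cell cannot be told apart.

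The promoters carried the letters of E2F binding sites more often than promoters at large. RefSeq windows on GRCm38.p6, from 250 bases before to 50 after the transcription start, were present for 38 of the 45 genes as 44 windows. An E2F-type motif, spelled TTTCCCGC or TTTCGCGC or TTTGCCGC or TTTGGCGC and searched on both strands, was in 17 of the 44 windows, or 38.6%, against 2.26% of 32851 windows of all genes. A CCAAT box was in 61.4% of the members' windows against 37.4% of all. The CHR element, spelled TTTGAA or TTCGAA, was in 20.5% against 19.2%. These are letter matches and not measured binding, and the list of genes was chosen as replication and G1/S genes. The following stretches, all upstream of the start, are shown because they hold the E2F-type letters, in capitals, in genes whose values are described below. The helicase subunit Mcm6 had 3 matches, of which 2 overlap, and Mcm5 had 2 that overlap. Mcm3, Mcm7 and Rfc3 had 2 matches each, and the second match of Rfc3 lies just past the end of the stretch shown.
Mcm6, chr1:128359715-128359845, minus strand: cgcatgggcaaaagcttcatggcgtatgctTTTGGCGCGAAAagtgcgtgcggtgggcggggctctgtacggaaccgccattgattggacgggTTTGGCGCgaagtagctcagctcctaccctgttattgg
Mcm5, chr8:75109326-75109397, plus strand: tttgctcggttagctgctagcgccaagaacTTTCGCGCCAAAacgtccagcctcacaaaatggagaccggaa
Cdc25a, chr9:109875482-109875549, plus strand: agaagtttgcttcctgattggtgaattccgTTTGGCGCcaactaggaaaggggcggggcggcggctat
E2f3, chr13:29986064-29986104, minus strand: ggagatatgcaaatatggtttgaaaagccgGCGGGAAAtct
E2f7, chr10:110745211-110745278, plus strand: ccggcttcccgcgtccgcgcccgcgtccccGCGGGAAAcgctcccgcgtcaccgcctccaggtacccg
Rfc3, chr5:151651209-151651248, minus strand: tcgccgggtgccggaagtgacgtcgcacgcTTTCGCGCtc
The motif was also in the windows of Cdc6, Cdk2, Cdt1, E2f2, Gins3, Lig1, Mcm3, Mcm7, Orc1, Pola1 and Pold1. In all, 17 of the 38 genes with a window had these letters. Those with a window but without them included Ccne1, E2f6, E2f8, Mcm10 and Pola2. There was no window for Ccne2, Gins1, Gins2, Gmnn, Mcm4, Pole and Prim2.

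The libraries held 2607872 to 7674887 counted reads, and the lowest total was that of Sin3a knockdown replicate 3. The targeted genes checked the labels. Sinhcaf was at 5.59, 6.54 and 5.06 CPM (reads scaled to library size by TMM) in the Fam60a knockdown libraries against 13.4, 14.0 and 13.1 in the controls, and fell by 1.23 ± 0.23 (SE) on the log2 scale. Its edgeR adjusted p was 0.028, and was 0.051 to 0.133 without any 1 of the 8 libraries other than Sin3a knockdown replicate 3, 0.0539 without the filter, 0.095 with a GC correction and 0.0671 with that correction and the replicate block. Sin3a was at 131, 136 and 110 CPM in its knockdown against 311, 281 and 268, and fell by 1.19 ± 0.11. In the Fam60a knockdown Sin3a was at 227, 216 and 207 CPM, below every control, with an adjusted p of 0.0964, and of 0.00466 without Sin3a knockdown replicate 3. All 8 embryonic stem cell markers were detected, with a summed level of 1332 to 1463 CPM in controls, 1120 to 1261 in the Fam60a knockdown and 1246 to 1364 in the Sin3a knockdown. Fold changes were negative for 8 of the 8 in the Fam60a knockdown, against 53.4% of all genes tested. In the Sin3a knockdown they were negative for 5 of the 8, against 51.0%. The 8 primitive endoderm markers summed to 954 to 2146, 1874 to 2723 and 2178 to 4445 CPM, with none at 0. All 8 fold changes were positive in both knockdowns, against 6738 (Fam60a) and 7084 (Sin3a) of 14465 genes tested. Replicate 3 was the highest in each group, and Sin3a knockdown replicate 3 was at 4445 CPM against 2261 and 2178 in replicates 1 and 2. Trophectoderm markers summed to 88.0 to 182, 142 to 223 and 110 to 374 CPM, with Elf5 at 0 in 4 of 9 libraries. Replicate 3 was again the highest in each group, at 374 CPM in the Sin3a knockdown against 119 and 110 in replicates 1 and 2. Fibroblast markers summed to 47.1 to 92.8, 40.5 to 56.2 and 22.1 to 56.9 CPM, with Dcn, Lum and Postn at 0 in 8, 6 and 5 of 9. Of these markers 1 rose in the Sin3a knockdown, Gata6 by 1.29 (adjusted p = 0.029). Fgf4 (-0.39, adjusted p = 0.0335) and Thy1 (-1.80, adjusted p = 0.00816) fell there, against 10.2% of all genes called. In the Fam60a knockdown 0 passed the test, against 2.92%. Thy1 was also higher in the Fam60a than in the Sin3a knockdown (1.82, adjusted p = 0.0183). Without Sin3a knockdown replicate 3, Gata6, Eomes and Hand1 rose and Nanog, Fgf4 and Col1a1 fell in the Fam60a knockdown, against 16.9% of all genes. In the Sin3a knockdown Gata6 and Hand1 then rose and Fgf4, Col1a1 and Thy1 fell, against 24.5% of all genes called. The part of these markers in the results below was not tested.

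Sin3a knockdown replicate 3 also stood apart in the replication genes. Over the 45 genes the median coefficient of variation was 4.7% in the controls and 5.74% in the Fam60a knockdown. In the Sin3a knockdown it was 17.7% with replicate 3 and 3.68% without it. The same medians over all genes tested were 9.99%, 10.8%, 29.6% and 6.35%, in that order. The fewest reads of any of the 45 genes were 203 in the other 8 libraries and 7 in this one. Those 7 reads were of Ccne2, the second cyclin E, at 2.84 CPM against 41.3 and 37.7 in the other libraries of its group. Rfc3, a clamp loader subunit, was at 25.2 CPM against 75.6 and 79.5, and Prim1, the catalytic primase subunit, at 34.9 against 93.8 and 94.5. In the opposite direction Lig1, the ligase that joins Okazaki fragments, was at 496 against 275 and 290 CPM, and Fen1, which trims them, at 227 against 129 and 123. The deviation of replicate 3 from the mean of replicates 1 and 2 was lower in genes whose transcripts are poorer in G and C, with Pearson's r of 0.714 and Spearman's rho of 0.716 across the 45 genes. This is a description across genes that share 1 library and its depth. Over 14126 tested genes with an annotated GC content r was 0.562. Values that rest on this library are therefore given with and without it.

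**Figure D1:**
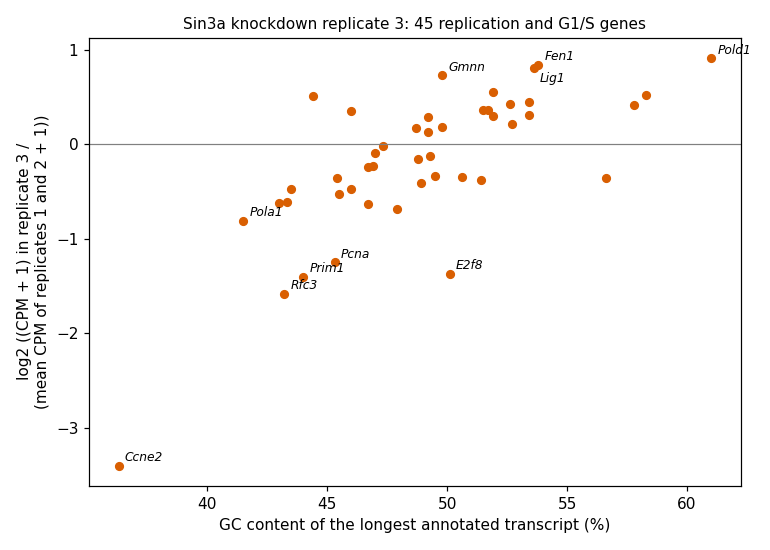
Deviation of Sin3a knockdown replicate 3 from the mean of the other 2 libraries of its group, as log2 of the ratio of CPM + 1 (y axis), against the GC content of the longest annotated transcript in percent (x axis), with 1 point for each of the 45 genes. Ccne2 lies lowest at 36.3% GC, and Pold1 lies highest at 61.0% GC.

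In control cells the 45 transcripts spanned about an order of magnitude per length. Levels between genes are compared as RPKM, which divides scaled reads by exon length, as the mean ± SD of the 3 controls. The helicase subunits Mcm3 (76.5 ± 3.5), Mcm4 (72.3 ± 2.4) and Mcm5 (70.6 ± 3.6) were the highest. Lig1 followed at 64.7 ± 2.7 and Ccne1, the main cyclin E of these cells by this measure, at 64.5 ± 3.5, and these neighbours did not differ beyond their SD. Ccne2 was at 11.3 ± 0.7 RPKM. Among E2F factors the activator E2f1 was highest at 33.0 ± 2.3, ahead of E2f8 at 23.4 ± 1.4 and E2f2 at 22.7 ± 2.0, which lay within 1 SD of each other. The lowest of all 45 were the repressors E2f6 at 10.0 ± 0.4 and E2f7 at 8.1 ± 0.6. The clamp Pcna was at only 18.9 ± 1.4 RPKM. Its count is uncertain, since reads shared with its processed pseudogenes could have been set aside or split, and 1 of these, Pcna-ps2, held 407 reads over the 9 libraries.

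**Figure D2:**
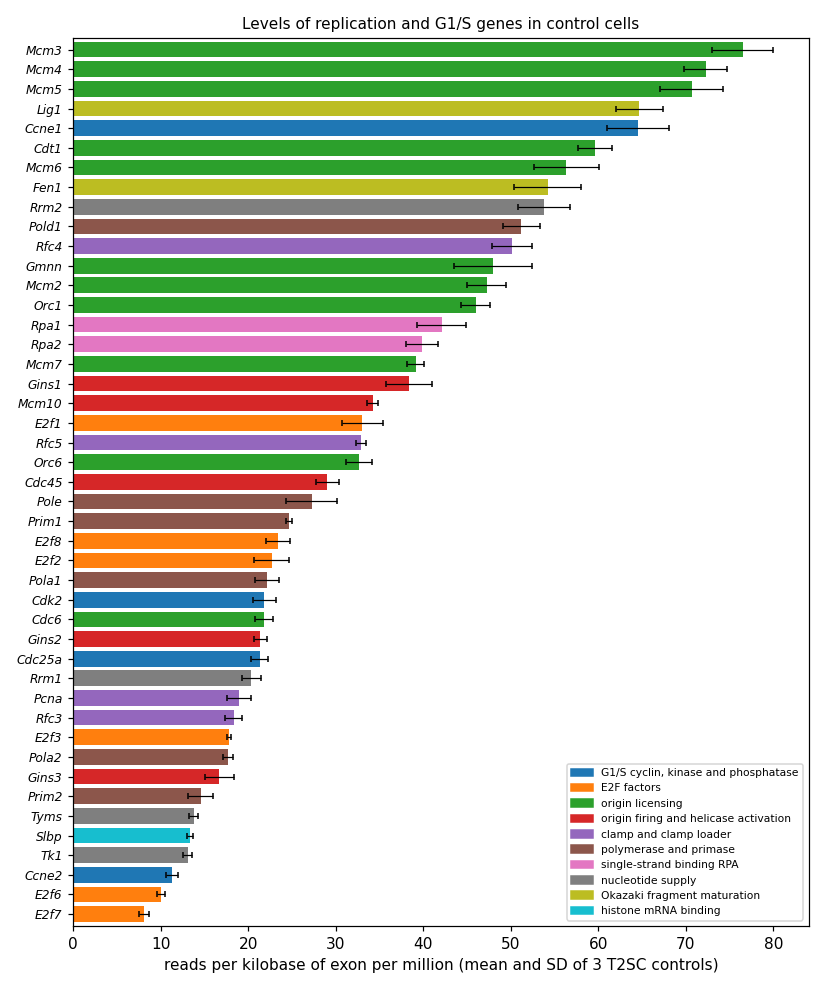
Mean RPKM of each of the 45 genes in the 3 T2SC controls (bars from 0, x axis), with SD as error bars and colours for roles. Origin licensing genes take the top 3 places, from 70.6 to 76.5 RPKM, and E2f7 is lowest at 8.1.

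The first comparison was of Fam60a knockdown with control cells. None of the 45 genes passed the test, and the differences were small: log2 fold changes ran from -0.28 for E2f3 to 0.35 for E2f6. The edgeR fit called 423 of 14465 genes, a background of 2.92%, or 887 (6.13%) with the replicate number as a block, where again 0 of the 45 were called. At an unadjusted p under 0.05 there were 4 of the 45 genes, or 8.89%, against 15.7% of all genes tested, and DESeq2 also called 0, against a background of 8.18%. Most values lay slightly below the controls: 38 of 45 fold changes were negative, or 84.4%, against 53.4% of all genes tested, and the median was -0.09 against -0.02. Summed over the 45 genes, the level was 6010 to 6348 CPM in the Fam60a knockdown and 6442 to 6794 in the controls, which is 93.6% of the control mean. The 95% interval lay within -1 to 1 for 44 of the 45 genes, all but Ccne2, and within -0.5 to 0.5 for 29. Without Sin3a knockdown replicate 3, which adds its spread to this comparison through the shared model, 45 of 45 intervals lay within -1 to 1, 43 within -0.5 to 0.5, and 5 genes were called against a background of 16.9%. Of these E2f2 and E2f6 rose and E2f3, Mcm6 and Mcm10 fell. With the replicate block as well, a fit added after seeing the data, 13 were called against 39.6%.

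Libraries of the Fam60a knockdown and the controls did not overlap for 18 of the 45 genes. Higher in this way were 2 of the 45, E2f2 and E2f6, against 2347 of 14465 genes tested, or 16.2%. Lower were 16 of the 45, against 2632 of 14465, or 18.2%. Those 16 were Ccne1, E2f3, Cdc6, Cdt1, Mcm2, Mcm6, Mcm7, Mcm10, Cdc45, Pcna, Rfc4, Rfc5, Pola2, Prim1, Pold1 and Rrm2.

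The E2F genes held both ends of the range. E2f6 is a repressor that lacks the RB-binding part of other E2F proteins, and its gene is at chr12:16810963-16839742 on GRCm38. It was at 75.7, 66.0 and 75.6 CPM in Fam60a knockdown replicates 1 to 3 and at 59.5, 55.8 and 55.1 in the controls. Every knockdown library lay above every control. The log2 fold change was 0.35 ± 0.12 (SE), with a 95% interval of 0.07 to 0.63 and an adjusted p of 0.187, and without Sin3a knockdown replicate 3 it was 0.36 ± 0.08 with an adjusted p of 0.0176. E2f2, an activating E2F gene at chr4:136172394-136196057, was at 134, 155 and 131 CPM against 103, 121 and 109. Its groups did not overlap, and in both of them replicate 2 was the highest. The fold change was 0.34 ± 0.14, with an interval of 0.02 to 0.66 and an adjusted p of 0.287, or of 0.0306 without that library. E2f3, another activator, at chr13:29906575-29986063, was at 79.0, 85.1 and 74.2 CPM against 95.5, 98.2 and 96.1. All 3 knockdown libraries were lower than the controls, which lay close together. This gave a fold change of -0.28 ± 0.13, with an interval of -0.58 to 0.02 and an adjusted p of 0.352, or of 0.0326 without that library. E2f1, E2f7 and E2f8 had fold changes of -0.09, -0.01 and 0.00, and the Fam60a knockdown libraries of E2f8 stayed within 126 to 128 CPM.

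All 11 origin licensing genes had negative values, with a median log2 fold change of -0.11, and 0 of the 11 passed the test. Their summed level was 92.2% of the control mean. Mcm6, the helicase subunit whose promoter is shown above, at chr1:128331590-128359664, was at 236, 204 and 220 CPM against 281, 247 and 260. The groups did not overlap, and replicate 1 was the highest and replicate 2 the lowest in both. Its fold change was -0.26 ± 0.10, with an interval of -0.48 to -0.03 and an adjusted p of 0.237, or of 0.0423 without Sin3a knockdown replicate 3. The other 5 subunits, Mcm2, Mcm3, Mcm4, Mcm5 and Mcm7, had values from -0.16 to -0.07, and Orc1, Orc6, Cdc6, Cdt1 and Gmnn from -0.14 to -0.02.

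Among the genes of helicase activation, Mcm10 codes for a protein that binds the loaded helicase and is needed for origin firing. The gene, at chr2:4989714-5012791, was at 228, 218 and 209 CPM against 268, 262 and 259. No Fam60a knockdown library reached the lowest control. Its fold change was -0.27 ± 0.10, with an interval of -0.48 to -0.05 and an adjusted p of 0.200, or of 0.0125 without that library. Cdc45, the helicase cofactor, at chr16:18780447-18811987, was at 92.3, 86.8 and 92.0 CPM against 107, 97.7 and 101. These groups also did not overlap, but the fold change of -0.17 ± 0.11 had an interval of -0.41 to 0.07, which includes 0. The GINS subunits Gins1, Gins2 and Gins3 had values of 0.02, -0.06 and 0.19.

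The machinery of the fork showed the same small size of difference. Pole, the catalytic subunit of the leading strand polymerase, at chr5:110286306-110337474, was at 236, 298 and 250 CPM against 279, 341 and 292. The groups overlapped, and replicate 2 was the highest in each. Within each number, however, the knockdown library was the lower one. Its value was -0.22 ± 0.15 with an adjusted p of 0.597, and with the replicate block it was -0.22 ± 0.10 with 0.275. With the block and without Sin3a knockdown replicate 3 it was -0.21 ± 0.04 with an adjusted p of 0.00308. Rfc5, a subunit of the loader that places PCNA on DNA, at chr5:117378103-117389047, was at 140, 133 and 134 CPM against 155, 150 and 155. The libraries separated, with a fold change of -0.18 ± 0.12 and an adjusted p of 0.610. Over all 6 polymerase and primase genes the median was -0.15, from Pole to Prim2 at 0.13, and the summed level was 91.3% of the control mean. The single-strand binding genes Rpa1 and Rpa2 had values of -0.07 and -0.15. In nucleotide supply, Rrm2, the small subunit of ribonucleotide reductase, was lowest at -0.18 and Tk1, a thymidine kinase, highest at 0.09. Fen1, Lig1 and Slbp, which binds the stem-loop of histone mRNA, lay at -0.04, -0.04 and -0.03.

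**Figure D3:**
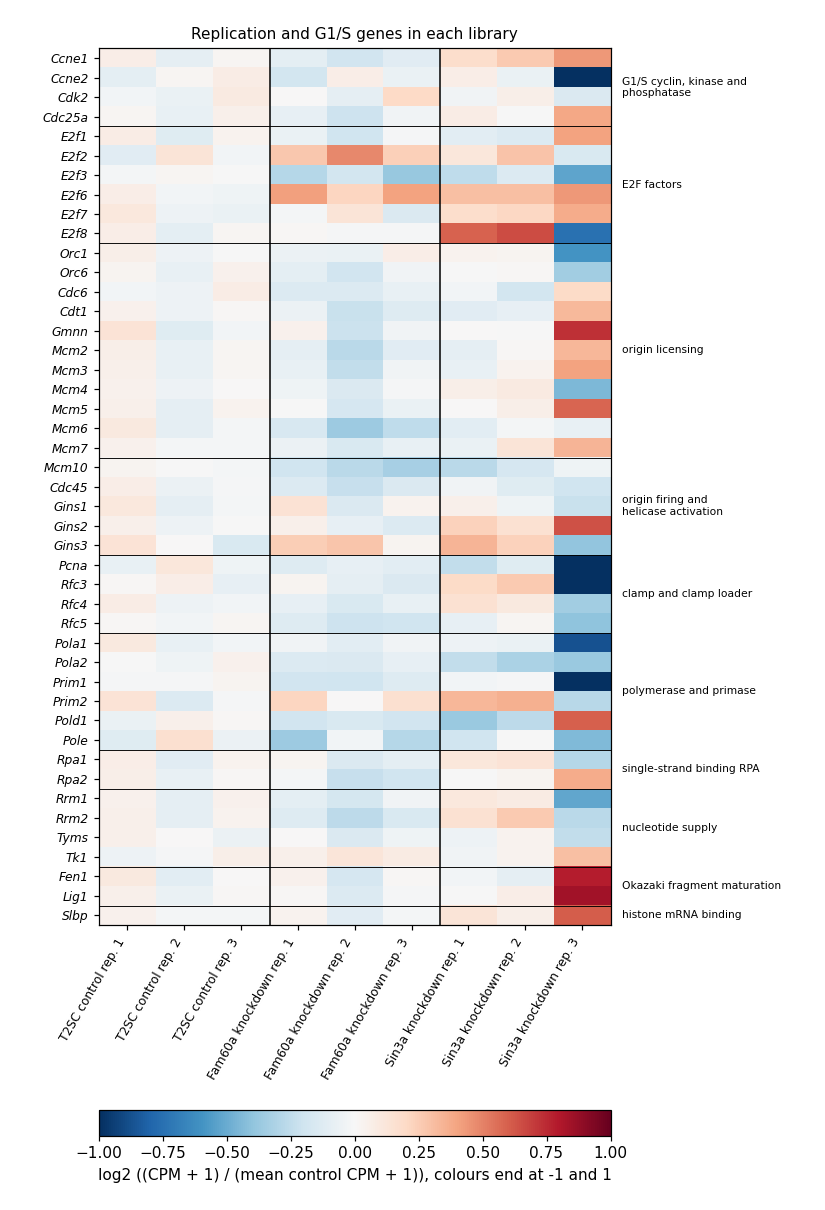
Level of each of the 45 genes (rows, grouped by role) in each of the 9 libraries (columns), as log2 of CPM + 1 over the mean control CPM + 1, with colours ending at -1 and 1. The Fam60a knockdown columns are mostly pale blue, E2f6 is red in all 6 knockdown libraries, and Sin3a knockdown replicate 3 differs from replicates 1 and 2 in many rows.

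The second comparison was of Sin3a knockdown with the same 3 controls. None of the 45 genes passed the test here either, although 1475 of 14465 genes were called, a background of 10.2%. At an unadjusted p under 0.05 there were 4 of the 45, or 8.89%, against 25.9% of all genes tested. DESeq2 called 3 of the 45, which were Ccne1, E2f6 and Pola2, against a background of 17.4%. The fold changes ran from -0.49 for Ccne2 to 0.36 for Gins2, with a median of 0.05 against -0.01 over all genes. Of the values 24 were positive and 21 negative, or 46.7% negative against 51.0% of all genes. The summed level of 6608 to 6994 CPM overlapped that of the controls, and was 103% of the control mean. The interval lay within -1 to 1 for 42 genes and within -0.5 to 0.5 for 23. With Sin3a knockdown replicate 3 left out, 7 of the 45 were called against a background of 24.5%. Of these Ccne1, Prim2, E2f6 and E2f8 rose and Mcm10, Pola2 and Pold1 fell, and the intervals lay within -1 to 1 for all 45. With the replicate block as well, 13 were called against 47.3%.

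Sin3a knockdown and control libraries did not overlap for 9 genes. Higher were Ccne1, E2f6, E2f7, Gins2 and Slbp, against 14.7% of all genes, and lower were E2f3, Mcm10, Pcna and Pola2, against 18.5%. With replicates 1 and 2 alone, 14 genes were higher in this way and 6 lower, against 27.4% and 28.6% of all genes.

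Ccne1 codes for cyclin E1, the partner of Cdk2 at the G1/S border, at chr7:38097984-38107534. It was at 194, 206 and 232 CPM in the Sin3a knockdown against 179, 161 and 174 in the controls. All 3 knockdown libraries were above the controls, and replicate 3 was the highest. The log2 fold change was 0.29 ± 0.11, with an interval of 0.06 to 0.53 and an adjusted p of 0.114. It passed the test without Sin3a knockdown replicate 3 (0.22 ± 0.07, adjusted p = 0.0417), with a correction for GC content (0.30 ± 0.09, adjusted p = 0.0443), which called 14.6% of all genes, and in DESeq2 (0.31 ± 0.12, adjusted p = 0.0483). Over 17 alternative fits Ccne1 was called in 5, and the replicate block alone was not among them. In the Fam60a knockdown the same gene was at 161, 150 and 158 CPM. Its fold change there was -0.14 ± 0.11 against the same controls. Ccne2 had a value of -0.49 ± 0.61 with an interval of -1.86 to 0.88, and of 0.00 ± 0.12 without replicate 3, and Fam60a knockdown values of Ccne2, at 34.6, 41.3 and 37.6 CPM against 36.8, 40.1 and 41.6 in the controls, overlapped them. Cdk2 and Cdc25a had values of -0.04 and 0.16.

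Of the E2F factors, E2f6 was at 70.1, 70.4 and 77.2 CPM in the Sin3a knockdown, again above every control. The fold change was 0.35 ± 0.12, with an interval of 0.07 to 0.63, and the adjusted p was 0.109, or 0.0367 without replicate 3. E2f3 was at 81.0, 87.7 and 66.6 CPM, below every control, with a fold change of -0.30 ± 0.13 and an adjusted p of 0.199, or of -0.20 ± 0.08 and 0.108 without replicate 3. The value of E2f7, a repressor of E2F targets at chr10:110745439-110787384, was 82.3, 84.1 and 94.7 CPM against 78.7, 70.5 and 69.6. The groups did not overlap, but the fold change of 0.25 ± 0.13 had an interval of -0.04 to 0.55. E2f8, the closest relative of E2f7, depended most on 1 library. It was at 192 and 201 CPM in replicates 1 and 2 and at 75.6 in replicate 3, against 134, 119 and 129 in the controls. So 2 libraries lay above all controls and 1 below them. With all libraries the fold change was 0.30 ± 0.30 and the adjusted p 0.554. Without replicate 3 it was 0.63 ± 0.06, with an interval of 0.48 to 0.77 and an adjusted p of 0.00045, the largest rise among the 45 genes in that fit. E2f8 has an intermediate transcript GC content of 50.1%, and its deviation in replicate 3 lies well below those of other genes near that content. E2f1 and E2f2 had values of 0.07 and 0.10.

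**Figure D4:**
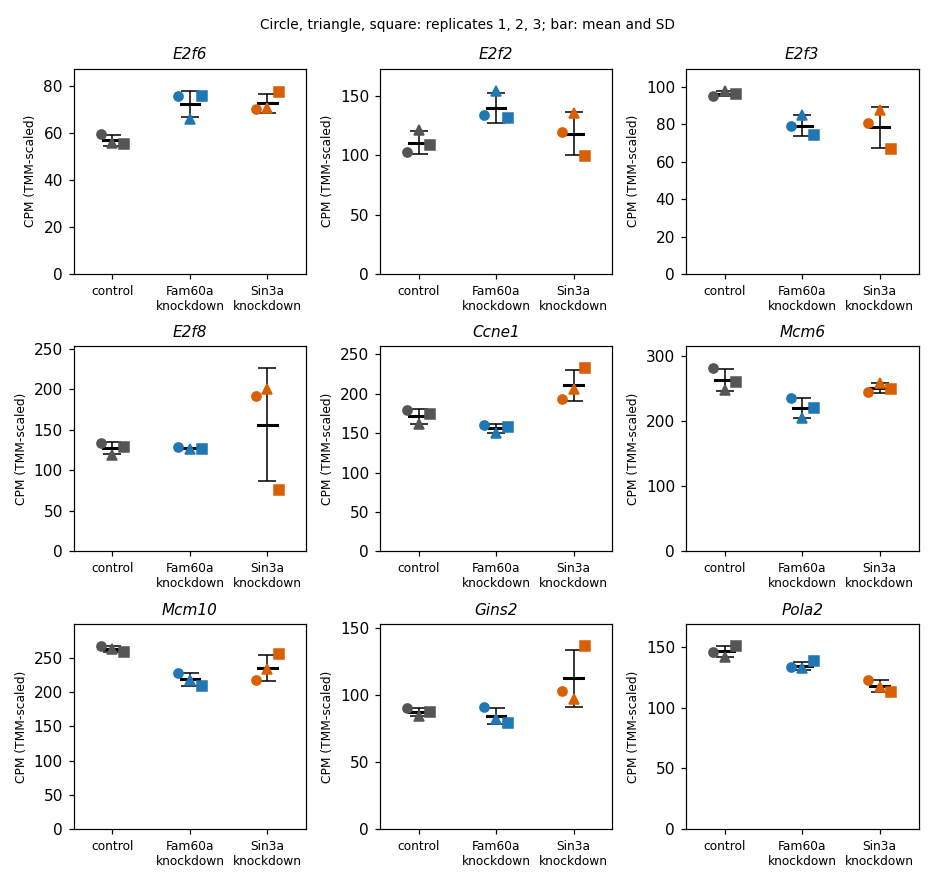
TMM-scaled CPM (y axis, from 0) of 9 genes in control, Fam60a knockdown and Sin3a knockdown libraries, with a circle, triangle and square for replicates 1, 2 and 3 and a bar for the mean with SD. E2f6 lies above the controls in both knockdowns, Ccne1 above them in the Sin3a knockdown, and E2f8 is split between 2 high and 1 low Sin3a knockdown library.

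Origin licensing genes lay around 0 in the Sin3a knockdown, with values from -0.14 for Orc1 to 0.28 for Gmnn and a median of 0.06. Without replicate 3 the 11 values ran from -0.10 for Cdc6 to 0.07 for Mcm4, and each of the 11 intervals lay within -0.5 to 0.5. Mcm6 was at 245, 259 and 249 CPM, which overlapped the controls. In helicase activation, Gins2, a GINS subunit at chr8:120578633-120589304, was at 103, 97.3 and 137 CPM against 90.7, 84.6 and 87.3. The groups did not overlap, and replicate 3 was well above the others. The fold change was 0.36 ± 0.15, with an interval of 0.02 to 0.69 and an adjusted p of 0.167, and without replicate 3 it was 0.20 ± 0.08 with an adjusted p of 0.108. Mcm10 was at 218, 233 and 256 CPM, below the controls in each library. Its fold change was -0.16 ± 0.10, or -0.22 ± 0.06 with an adjusted p of 0.0272 without replicate 3.

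Among polymerase genes, Pola2, the accessory subunit of the polymerase alpha-primase complex, had the smallest p of the 45. The gene, at chr19:5940542-5964202, was at 123, 118 and 113 CPM in the Sin3a knockdown and at 146, 142 and 151 in the controls. The groups were well apart, with a gap wider than the spread of either. The fold change was -0.31 ± 0.10, with an interval of -0.53 to -0.10, and the adjusted p was 0.0733. It passed the test without replicate 3 (-0.28 ± 0.06, adjusted p = 0.0136) and in DESeq2 (-0.29 ± 0.09, adjusted p = 0.0112). The other genes of the same complex did not share its values: without replicate 3 Pola1 was at -0.06, Prim1 at -0.02 and Prim2 at 0.35 ± 0.10 with an adjusted p of 0.0283. Prim2, the large primase subunit, was at 109 and 111 CPM in replicates 1 and 2 and 71.1 in replicate 3, against 95.3, 78.5 and 85.5. Pold1, the catalytic subunit of polymerase delta, was at 192, 208 and 377 CPM against 238, 258 and 251. Replicates 1 and 2 were below every control and replicate 3 above them, and the fold change was 0.05 ± 0.23 with replicate 3 and -0.31 ± 0.06 without it, with an adjusted p of 0.00746.

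At the Okazaki fragment step Lig1, at chr7:13277283-13311433, was at 275, 290 and 496 CPM against 286, 264 and 279. The groups overlapped, since only replicate 3 was clearly higher. This gave 0.35 ± 0.21, or 0.03 ± 0.07 without replicate 3. Slbp, at chr5:33634952-33652574, was at 88.7, 84.5 and 124 CPM against 83.4, 79.8 and 80.0, which did not overlap but left replicates 1 and 2 within 10 CPM of the controls. Its fold change was 0.28 ± 0.16, and 0.10 ± 0.08 without replicate 3. Pcna was at 38.1, 41.8 and 16.2 CPM against 43.2, 49.1 and 44.0, with fold changes of -0.48 ± 0.29 and, without replicate 3, of -0.19 ± 0.11. The 4 clamp and clamp loader genes summed to 217 to 360 CPM, of which the lowest was replicate 3, against 337 to 346 in the controls.

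**Figure D5:**
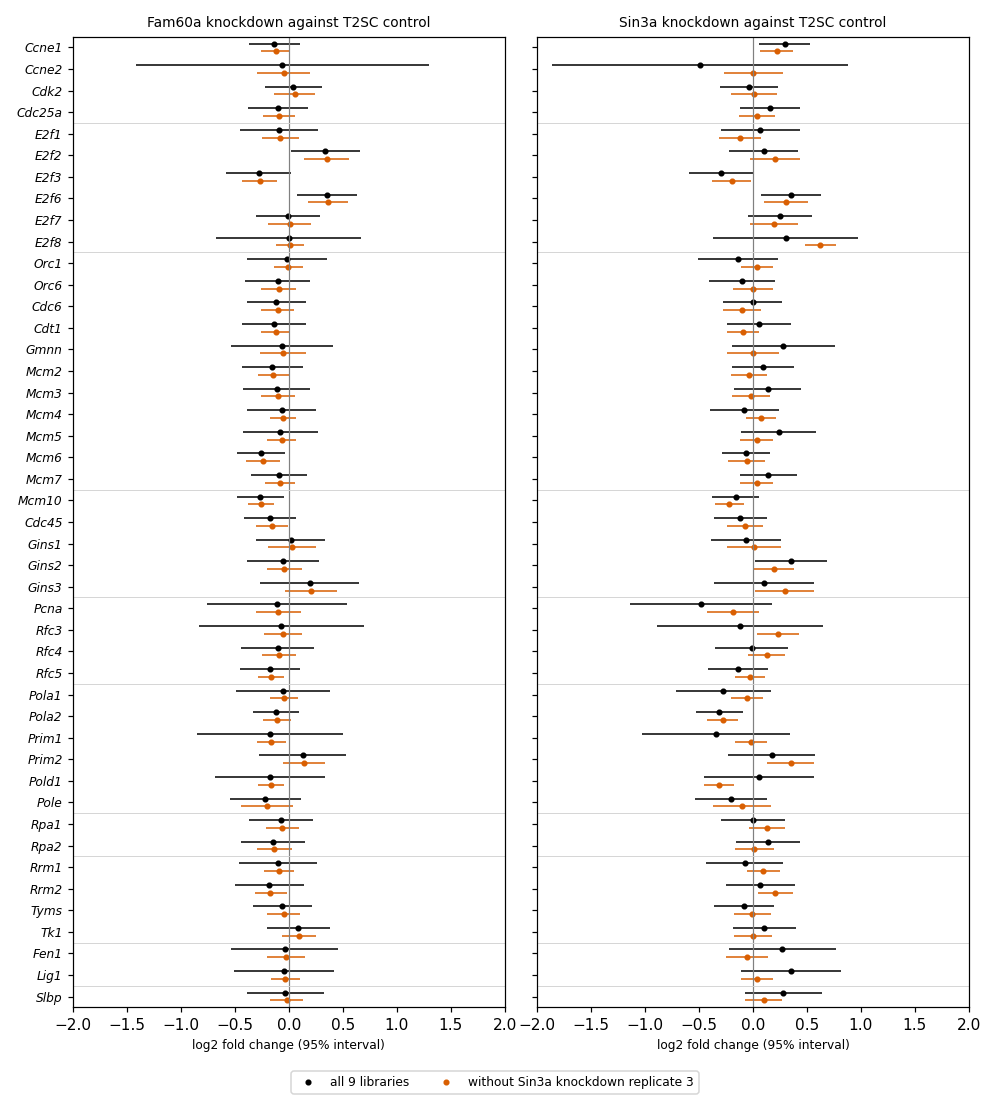
Log2 fold change with 95% interval (x axis) of each of the 45 genes in Fam60a knockdown (left) and Sin3a knockdown (right) against the same 3 controls, with all 9 libraries (black) and without Sin3a knockdown replicate 3 (orange). Black intervals lie within -1 to 1 for 44 genes on the left and 42 on the right, and orange ones for all 45 in both.

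The knockdowns were also compared directly, since both were set against the same controls. None of the 45 genes passed this test, against 443 of 14465 genes called, or 3.06% (672, or 4.65%, with the replicate block, where 0 of the 45 were called). At an unadjusted p under 0.05 there were 2 of the 45, Ccne1 and Gins2, or 4.44% against 18.1% of all genes tested. In the Fam60a knockdown 31 of the 45 values were lower than in the Sin3a knockdown, or 68.9%, against 48.6% of all genes, with a median of -0.08 against 0.01. The difference for Ccne1, 161, 150 and 158 CPM against 194, 206 and 232, was the furthest from 0 among the negative values. The 2 groups did not overlap, and the log2 difference was -0.43 ± 0.11, with an interval of -0.67 to -0.19 and an adjusted p of 0.0658. It passed without Sin3a knockdown replicate 3 (-0.34 ± 0.07, adjusted p = 0.0114), with the GC correction (-0.42 ± 0.09, adjusted p = 0.0262) and in DESeq2 (-0.45 ± 0.12, adjusted p = 0.00409), against backgrounds of 14.7%, 5.68% and 9.23%. Gins2 differed by -0.41 ± 0.15 with an adjusted p of 0.180, and by -0.24 ± 0.08 with 0.0788 without replicate 3. For E2f6 the difference was 0.00 with an interval of -0.28 to 0.28, and for E2f3 it was 0.01 with an interval of -0.29 to 0.31.

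Libraries of the knockdowns did not overlap, and were lower in the Fam60a knockdown, for 8 of the 45 genes, against 11.6% of all genes. These were Ccne1, Cdc25a, E2f7, Mcm5, Mcm6, Gins2, Rpa2 and Slbp. Only Pola2 was higher, against 13.9%. With Sin3a knockdown replicates 1 and 2 alone, 20 of the 45 were lower in this way, against 24.9% of all genes. Higher were 3 of the 45, Pola2, Pold1 and Tk1, against 24.5%. Without Sin3a knockdown replicate 3, 3 of the 45 were called lower, which were Ccne1, E2f8 and Rrm2, and 0 higher, against a background of 14.7%, or 16 in all against 36.1% with the replicate block as well. E2f8 then differed by -0.62 ± 0.06 with an adjusted p of 0.00101. Rrm2 was at 137, 124 and 134 CPM in the Fam60a knockdown and at 166 and 179 in Sin3a knockdown replicates 1 and 2, with 124 in replicate 3. It differed by -0.38 ± 0.07 with an adjusted p of 0.0111 without replicate 3, and by -0.25 ± 0.14 with all libraries. All 11 origin licensing values were negative in that fit, from -0.19 for Mcm6 to 0.00 for Cdc6, and 0 of the 11 passed the test.

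Another 66 genes of replication and G1/S control were all tested. In each of the 3 comparisons 1 of them fell and 0 rose, against backgrounds of 2.92%, 10.2% and 3.06% called. The gene that fell was Ccnd1 each time. It codes for cyclin D1, which acts with Cdk4 and Cdk6 upstream of cyclin E. Ccnd1, at chr7:144929931-144939925, was at 75.4, 70.7 and 53.9 CPM in the Fam60a knockdown, at 108, 107 and 101 in the Sin3a knockdown and at 163, 143 and 156 in the controls. The 3 groups did not overlap, in the order Fam60a knockdown, Sin3a knockdown, control. It fell by 1.21 ± 0.14 in the Fam60a knockdown with an adjusted p of 0.00852, a call lost only without control replicate 1 (adjusted p = 0.0551). It fell by 0.55 ± 0.14 in the Sin3a knockdown with an adjusted p of 0.0405, and the direct difference was -0.66 ± 0.14 with an adjusted p of 0.044. The Sin3a knockdown call did not hold without control replicates 1, 2 or 3, Fam60a knockdown replicates 1 or 2, or Sin3a knockdown replicates 1 or 2 (adjusted p = 0.0566 to 0.172), without the filter (0.0719) or with only the groups compared (0.0573). The direct difference did not hold without any 1 library other than Sin3a knockdown replicate 3 (adjusted p = 0.0758 to 0.13), without the filter (0.065) or with only the groups compared (0.167). Their log2 values stayed within -0.57 to -0.47 and -0.76 to -0.53. The median log2 fold change of the 66 genes was -0.08 in the Fam60a knockdown, against -0.02 over all genes tested. There 49 values were negative, or 74.2%, against 53.4% of all genes. In the Sin3a knockdown the median was -0.06 against -0.01, with 36 negative, or 54.5%, against 51.0%. Without Sin3a knockdown replicate 3, 0 of the 66 rose and 8 fell in the Fam60a knockdown, against a background of 16.9%. Those 8 were Orc5, Mcm9, Ticrr, Clspn, Nasp, Pclaf, Ccnd1 and Tfdp2. In the Sin3a knockdown 6 rose (Wdhd1, Chaf1b, Ccnd3, Rb1, Rbl2 and Fbxw7) and 5 fell (Orc5, Dna2, Pclaf, Ccnd1 and Ccnd2), against 24.5%. The extremes there were Ccnd2 at -2.64 and Rb1 at 1.255. With all 9 libraries these were at -1.14 and 0.89 and were not called. None of 12 G2/M genes passed the test in any of the 3 comparisons with all 9 libraries. Without Sin3a knockdown replicate 3, Aurkb fell in the Fam60a knockdown (-0.41, adjusted p = 0.0124), and Cenpe (0.32, adjusted p = 0.0216) and Mki67 (0.46, adjusted p = 0.0167) rose in the Sin3a knockdown. Aurkb (-0.37, adjusted p = 0.0328) and Bub1 (-0.24, adjusted p = 0.0347) were then lower in the Fam60a than in the Sin3a knockdown, and the backgrounds of that fit were 16.9%, 24.5% and 14.7%. Their summed level was 2293 to 2321 CPM in the Fam60a knockdown, 2036 to 2706 in the Sin3a knockdown and 2314 to 2373 in the controls.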

How the data were processed

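The authors deposited counts, whole numbers of reads per Ensembl gene for each of 9 libraries, not normalized. Per the labels' protocols, total RNA was made into TruSeq stranded libraries and read as single ends. Per the submitters' processing notes, STAR 2.4.0j, Picard, featureCounts and Subread were used. Per the file headers, duplicates had been removed before counting, which compresses the counts of abundant transcripts. Build and annotation are not given in the sources used here. Symbols, positions, lengths and GC content came from GENCODE on GRCm38, which matched 32937 of 37990 IDs, and promoter windows from RefSeq.

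Counts were fitted in R 4.3.3 with edgeR 4.0.16 (filterByExpr, TMM, robust quasi-likelihood F-tests, 1 model of 3 groups over all 9 libraries). Every adjusted p is a Benjamini-Hochberg value over all genes tested, with a threshold of 0.05, from edgeR unless DESeq2 1.42.0 is given as the tool. In the edgeR fit of all 9 libraries, Sin3a knockdown replicate 3 included, the common biological coefficient of variation was 0.25. CPM values are TMM-scaled, and RPKM divides them by the annotated exon length. Each edgeR SE was derived from the test, as the size of the log2 fold change divided by the square root of its F statistic. Intervals are 95% t intervals built from that SE. A count of 0 would allow up to 3 counts, or 0.391 to 1.15 CPM. The script was tested on simulated counts.

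Same-numbered libraries of different groups deviated together (9 of 9 correlations positive, 0.178 to 0.622, while 18 between different numbers lay from -0.448 to 0.113). The deviations within a group cancel out by construction, so these correlations are not independent of each other. The pairing comes from the numbers in the titles, and the labels do not say what a number marks. The blocked fit is therefore given beside a result it changes. P-values measure the spread between these libraries.

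The 45 genes, their roles, the other lists and the motifs were chosen with earlier results of these data known. Each of the 45 could be named. Values per library were given for the 8 smallest p-values in each comparison with controls, and for genes whose call depended on 1 library. Alternatives were DESeq2 size factors, DESeq2, no filter, only the groups compared, the replicate block, a GC correction, both together, and leaving out each library. The block without Sin3a knockdown replicate 3 was added after seeing the data.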

Additional observations from a re-analysis of the deposited data

How the results depend on the processing

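Counts of called genes moved with the model, in Fam60a knockdown against control, Sin3a knockdown against control and Fam60a against Sin3a knockdown in that order. With 1 library left out they were 11 to 2495, 521 to 3606 and 48 to 2166 genes, with the highest each time without Sin3a knockdown replicate 3. Of the 45 genes 0 to 5, 0 to 7 and 0 to 3 were then called, and 0 in each comparison without any other single library. DESeq2 called 1181, 2507 and 1332 genes, and 0, 3 and 1 of the 45, the last being Ccne1. Fitting only the groups compared gave 1827, 739 and 0 genes (12.8%, 5.25% and 0.0%), and 3, 0 and 0 of the 45 (E2f2, E2f6 and Mcm10). The GC correction gave 728, 2118 and 821 genes, and 0, 1 and 1 of the 45 (Ccne1). With the numbers in the titles taken as pairs, the replicate block gave 887, 2164 and 672 genes and 0 of the 45 in each. It changed no call of the 45 genes, of Ccnd1, or of Sinhcaf and Sin3a in their own knockdowns. The replicate block with the GC correction gave 1691, 3331 and 1565 genes (11.7%, 23.0% and 10.8%), and 0, 4 and 2 of the 45 (Ccne1, E2f6, Gins2 and Pola2, then Ccne1 and Gins2). The replicate block without Sin3a knockdown replicate 3, chosen after seeing the data, gave 5842, 6975 and 5321 genes, and 13, 13 and 16 of the 45, against backgrounds of 39.6%, 47.3% and 36.1%. DESeq2 size factors in edgeR and no filter kept the counts within 1.5 times, with 0 of the 45 called. No value of Sinhcaf, Sin3a or Ccnd1 that was called with all 9 libraries changed sign. Of values called in 1 or 2 alternatives, those of Gins3, Pold1 and Rfc3 in Sin3a knockdown against control, and of Mcm4, Pold1, Prim1, Prim2, Rfc3 and Rrm1 in the direct comparison, had both signs across settings (for Pold1 -0.31 to 0.25 and -0.40 to 0.15). The cause of these moves was not tested. The lowest depth was that of Sin3a knockdown replicate 3. There Ccne2 had 7 reads, at 2.84 CPM against 41.3 and 37.7 in replicates 1 and 2.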
